A study of Mus musculus with 38 samples.

Results

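The 6 genes described here encode microtubule-associated proteins: Map1a, Map1b and Map1s of the MAP1 family, and Map2, Map4 and Mapt (tau) of the MAP2/tau family. They were taken by name, as a list, from the 22401 genes with a coding sequence (CDS) in ribosome profiling tables of cultured mouse cortical neurons. For each gene the transcript with the longest exons was used, and all 6 passed the filter on low counts in every fit of CDS counts.

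The study used PL-Ribo-seq, in which the biotin ligase TurboID tags proteins near it, streptavidin isolates tagged complexes with their ribosomes, and the mRNA pieces under those ribosomes (footprints) are sequenced. Primary cortical neurons from embryos of CD-1 mice expressed, from a doxycycline-inducible lentivirus, either TurboID-PSD95, which elements of the postsynaptic protein PSD95 carry to dendrites, or an undirected ligase, Pan-TurboID. Each streptavidin pulldown has an input, a small share of the same monosomes. The comparisons address which mRNAs are translated near the dendritic bait and how depolarization changes that.

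The 38 libraries fall into 14 groups, 10 groups of 3 and 4 groups of 2, 7 groups of inputs and 7 of pulldowns, giving 19 input and pulldown pairs. The KCl experiment holds 24 libraries: both baits, resting or depolarized with 55 mM KCl for 1 h after 2 h in tetrodotoxin and DL-AP5. The labels give no such silencing for resting libraries. KCl and silencing therefore cannot be told apart in comparisons with rest. In the DHPG experiment, 6 TurboID-PSD95 libraries received 100 µM DHPG, which activates metabotropic glutamate receptors of group I, for 10 min after the same silencing. In the knockdown experiment, 8 TurboID-PSD95 libraries carried 20 nM siRNA against eIF4G2 for 72 h, resting or with KCl. All neurons received cycloheximide for 2 min and biotin for 30 min according to the labels. For DHPG the study's methods give 20 min of biotin instead, so labelling time may differ from rest. By the same methods, fresh medium with biotin, tetrodotoxin and DL-AP5 replaced the KCl medium for 30 min. The DHPG and knockdown experiments have no resting or untreated libraries of their own here, so resting and untreated TurboID-PSD95 libraries of the KCl experiment stand in, and treatment and experiment cannot be told apart in those comparisons. Control siRNA libraries were not analysed here, so the effect of transfection is part of the knockdown comparisons. The labels describe the DHPG inputs and the knockdown libraries as cytosol while giving PSD95-TurboID as the virus, and the virus was followed. The study's methods describe the PL-Ribo-seq replicates as biological, each from several pooled dishes, and the labels do not say whether each was a separate preparation of neurons.

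Total counts per library were 5906281 to 35643247, of which 2048601 to 14646331 fell in the CDS of the chosen transcripts. Levels are given as CPM, the count scaled to the same total of those CDS counts in each library, and, between genes, as CPM per kb of CDS. Neuronal markers had the highest sums in inputs: 7 of them summed to 2646 to 5327 CPM, with Tubb3 alone at 550 to 4229 and Rbfox3 at 9.15 to 42.0. The sums were 219 to 1120 CPM for 6 astrocyte markers, 26.1 to 380 for 7 oligodendrocyte markers and 1.28 to 24.0 for 6 microglial markers. In bulk libraries fewer cells of a type and less RNA per cell cannot be told apart. Eif4g2, the siRNA target, fell in resting knockdown inputs by 0.98 on the log2 scale (SE 0.19, edgeR adjusted p = 0.00375). Arc, an activity gene, rose with KCl in inputs by 3.48 (SE 0.20, edgeR adjusted p = 3.58e-12). Dlg4, which encodes PSD95, was at 1369 to 3094 CPM in resting TurboID-PSD95 pulldowns against 131 to 193 in their inputs, and at 39.7 to 50.1 in resting Pan-TurboID pulldowns. The bait construct carries PSD95 elements, and any reads from it were not told apart from those of endogenous Dlg4.

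Microtubules are polymers of tubulin that give axons and dendrites their shape and serve as tracks for transport. MAP1A and MAP1B are made as long precursors that are cut into a heavy and a light chain; MAP1B is prominent in growing neurons and MAP1A in mature dendrites, where it binds PSD95-type scaffold proteins. MAP2 is the classic dendritic protein, tau the axonal one, and MAP4 is found in most cell types; these proteins share a set of tubulin-binding repeats near their C-terminus. MAP1S is a short, widely expressed MAP1 protein. Map2 mRNA is known to reach dendrites, and Map1b mRNA is a well-known target of FMRP.

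The 2 families differ in how their CDS is built, which matters for every segment value below. In mm10, Map1a lies on chromosome 2 (plus strand, CDS from 121289635 to 121308087, 9045 nt), Map1b on chromosome 13 (minus strand, 99425806 to 99516487, 7395 nt) and Map1s on chromosome 8 (plus strand, 70906004 to 70915526, 2595 nt). Segment 5 of each is a single long exon, of 8104, 6490 and 2089 nt. The last segment of the Map1s CDS used here (53 nt) held 0 counts over the 38 libraries. The last segments of another transcript, Map1s-201, of 224 and 156 nt, held 2917 and 1366 counts and are not part of the Map1s values. With the highest-count transcript of each gene no member call changed. Map2 lies on chromosome 1 (plus strand, 66380512 to 66439007, 5487 nt in 12 segments), Map4 on chromosome 9 (plus strand, 109978869 to 110081742, 3378 nt in 18 segments) and Mapt on chromosome 11 (plus strand, 104282381 to 104328187, 1119 nt in 9 segments). No member overlaps the CDS of another gene. By CDS length, Map1a stands at percentile 99.3 of all genes and Mapt at 50.8.

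The first CDS segments of the MAP1 genes are shown because each had the lowest pulldown value relative to input among the tested segments of its gene, as given below. They are read from the mm10 genome in the direction of the transcript, with the start codon in capitals.
Map1a, chr2:121289635-121289872, plus strand: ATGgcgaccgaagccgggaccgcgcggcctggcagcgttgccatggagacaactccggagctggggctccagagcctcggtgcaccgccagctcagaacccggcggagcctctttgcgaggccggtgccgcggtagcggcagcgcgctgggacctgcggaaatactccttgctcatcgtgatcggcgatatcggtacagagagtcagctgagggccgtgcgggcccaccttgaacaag
Map1b, chr13:99516304-99516487, minus strand: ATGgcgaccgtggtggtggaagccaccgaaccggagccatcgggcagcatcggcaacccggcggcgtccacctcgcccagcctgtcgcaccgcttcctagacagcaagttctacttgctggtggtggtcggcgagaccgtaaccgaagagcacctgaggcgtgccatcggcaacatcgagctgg
Map1s, chr8:70906004-70906127, plus strand: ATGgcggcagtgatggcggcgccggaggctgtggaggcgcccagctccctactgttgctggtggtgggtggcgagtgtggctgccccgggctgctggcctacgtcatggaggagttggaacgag
These stretches of 238, 184 and 124 nt have a GC content of 67.2%, 65.2% and 68.5%.

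An alternative repeat exon of 93 nt is shown for Map2 and Map4 because it sets the number of tubulin-binding repeats, and its use is compared below. Capitals mark the 59 of 93 positions that are equal in both genes (63.4%).
Map2, chr1:66431527-66431619, plus strand: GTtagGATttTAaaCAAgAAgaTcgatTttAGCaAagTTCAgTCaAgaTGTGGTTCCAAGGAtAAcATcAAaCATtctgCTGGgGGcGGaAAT
Map4, chr9:110072613-110072705, plus strand: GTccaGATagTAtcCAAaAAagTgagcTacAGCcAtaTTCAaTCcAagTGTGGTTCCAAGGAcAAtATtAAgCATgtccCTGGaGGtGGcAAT

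Per length, tau was the most footprinted member in inputs. In the 6 resting inputs the mean level was 2138 CPM per kb for Mapt, 1195 for Map1b, 759 for Map2, 249 for Map1a, 198 for Map4 and 57.2 for Map1s. These levels rank 14th, 48th, 119th, 634th, 825th and 2957th among 16026 genes with a count. The order Mapt, Map1b, Map2 held by group mean in every input group, and the libraries of these neighbours overlapped only in the Pan-TurboID KCl inputs. Map1a stood above Map4 in both resting input groups, without overlap, and below it in every KCl, DHPG and knockdown input group, overlapping in both KCl groups without siRNA.

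In pulldowns the order changed. Map1b led in all 7 pulldown groups, above Mapt in the KCl experiment (overlapping it in TurboID-PSD95 KCl pulldowns) and above Map1a in the DHPG and knockdown groups. Its level reached 7499 CPM per kb (mean of 2 libraries) in knockdown KCl pulldowns, against 1612 in their inputs. Map1a and Map2 could not be separated in either TurboID-PSD95 pulldown group of the KCl experiment, where their libraries overlapped. The 6 genes together took 1.46% to 2.46% of all CDS counts in inputs, and 5.30% to 6.97% in knockdown pulldowns, mostly through Map1b.

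**Figure D1:**
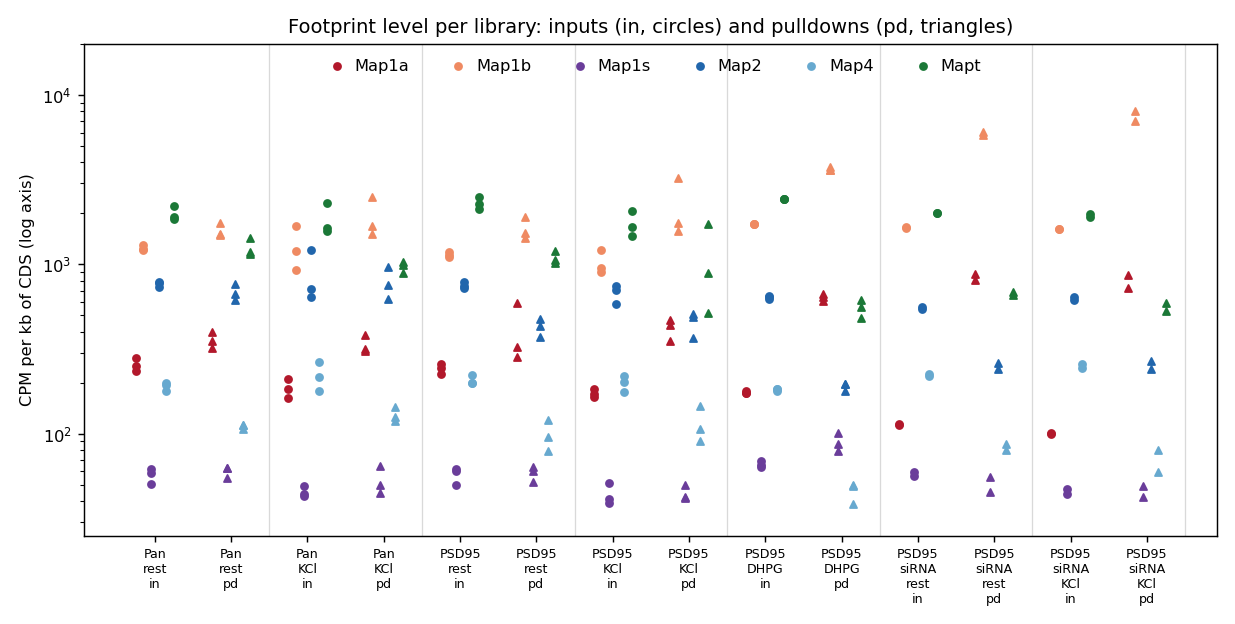
Footprint level of each gene in each library, as CPM per kb of CDS on a log axis, for 7 arms with inputs (circles) and pulldowns (triangles) side by side. By group mean Map1a and Map1b sit higher in pulldowns than in inputs, and Map2, Map4 and Mapt sit lower. Libraries overlap for Map1b in the Pan-TurboID KCl arm, Map2 in both Pan-TurboID arms and Mapt in the TurboID-PSD95 KCl arm. The distance is widest in the siRNA arms for Map1a and Map1b and in the DHPG arm for Map2, Map4 and Mapt.

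The comparison of each pulldown with the input of the same number split the families. Map1a was above its input in 19 of 19 pairs (plain log2 ratio of CPM 0.32 to 3.12), as was Map1b (0.21 to 2.32). Map4 and Mapt were below in 19 of 19 pairs, and Map2 in 18 of 19 (-1.81 to 0.07). In 19 of 19 pairs the lower of Map1a and Map1b exceeded the highest of Map2, Map4 and Mapt. Map1s ran from -0.40 to 0.67 with a median of 0.08, above 0 in 14 of 19 pairs, among them the 3 DHPG pairs (0.19 to 0.67).

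**Figure D2:**
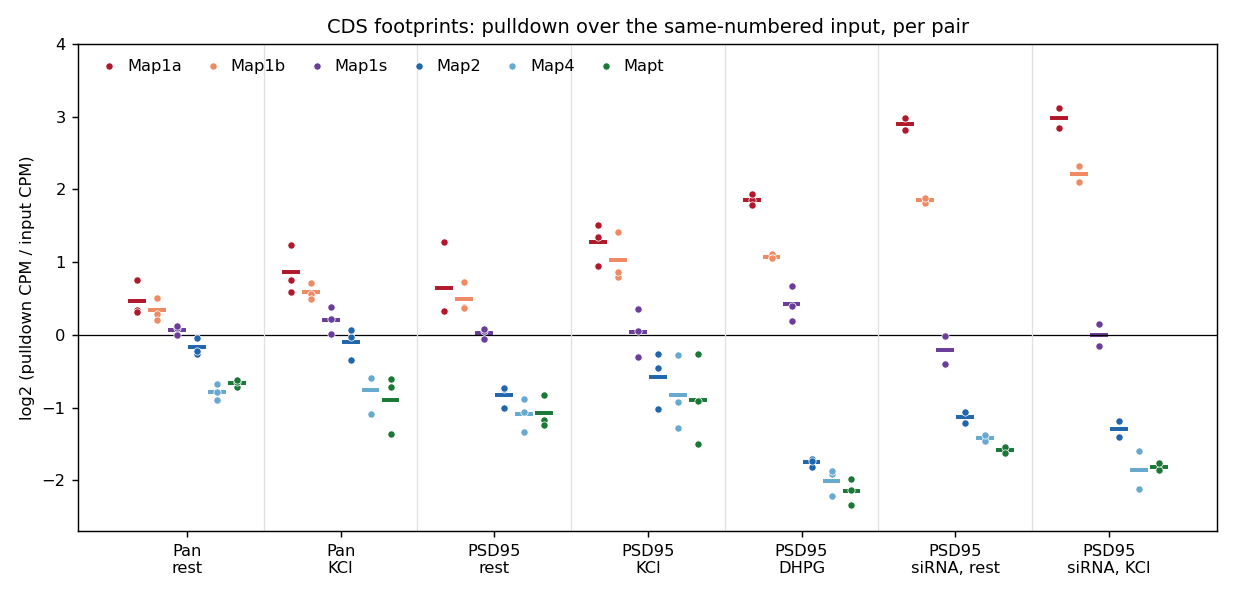
Log2 ratio of pulldown CPM to the CPM of the same-numbered input, per pair (points) with the mean of each arm (bars), for 7 arms of 3 or 2 pairs. Map1a and Map1b lie above 0 in every pair, Map4 and Mapt below 0 in every pair, and Map1s lies on both sides of 0, from -0.40 to 0.67.

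With TurboID-PSD95 at rest, 4 of the 6 genes passed the test, where 25% of 13019 tested genes did: Map1a rose and Map2, Map4 and Mapt fell. The median over the 6 genes was -0.36, against -0.05 over all genes. Map1a, the MAP1 protein of mature dendrites, was at 2028, 2340 and 2213 CPM in inputs and 2554, 2934 and 5343 in pulldowns. The groups did not overlap, and the pulldown of replicate 3 stood far above the others. The edgeR quasi-likelihood fit, which uses TMM factors and so differs slightly from plain ratios, gave a log2 fold change of 0.75 (SE 0.22, adjusted p = 0.0168). Map1b was at 8134, 8749 and 8418 CPM and at 10599, 11288 and 13999, with no overlap, but its 0.54 (SE 0.27) did not pass (edgeR adjusted p = 0.138). With each culture as a block, so that a pulldown is set against its same-numbered input, it did (0.53, edgeR adjusted p = 0.000568). This block was added after the data were seen.

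Map2, the dendritic member, was at 3969, 4327 and 4103 CPM in those inputs and 2369, 2600 and 2055 in the pulldowns, every pulldown below every input. It fell by 0.78 on the log2 scale (SE 0.23, edgeR adjusted p = 0.0172). Tau moved from 2555, 2377 and 2785 CPM to 1140, 1348 and 1185, which is less than any input. Mapt fell by 1.03 (SE 0.26, edgeR adjusted p = 0.00866) and Map4 by 1.03 (SE 0.20, edgeR adjusted p = 0.00337). Map1s was at 129 to 161 CPM in inputs and 134 to 164 in pulldowns, with a log2 difference of 0.06 (SE 0.19). Without replicate 3 no member passed, nor did any other gene (0 called over all genes, 3259 with all replicates). Map1a then dropped to 0.37 while Map2, Map4 and Mapt were at -0.70, -0.92 and -0.94. Without replicate 2 (1110 genes called), Map1a (0.99) and Map2 (-0.79) did not pass. Without replicate 1 (2900 genes called), Map1b did (0.62).

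After KCl, the same bait gave calls for 3 of 6 genes, with 12.6% of all genes called (median -0.23 for the 6 genes, -0.02 for all). Map1a rose from 1481, 1651 and 1558 CPM in inputs to 4242, 3195 and 3957 in pulldowns, by 1.33 on the log2 scale (SE 0.22, edgeR adjusted p = 0.00205). Map1b rose from 8952, 6694 and 7063 CPM to 23975, 11611 and 12931, by 1.14 (SE 0.27, edgeR adjusted p = 0.0120). Both pulldown groups lay above their inputs, and the first Map1b pulldown was the highest of the KCl experiment. Map4 fell by 0.77 (SE 0.20, edgeR adjusted p = 0.0187). Map2, at 4087, 3216 and 3854 CPM in inputs and 2020, 2695 and 2803 in pulldowns, had -0.53 (SE 0.23) and missed the threshold, as did Mapt at -0.70 (SE 0.26), whose second pulldown (1926 CPM) lay within the inputs (1644 to 2307). Both passed with each culture as a block (-0.53 and -0.84, edgeR adjusted p = 0.00147 and 0.000733). Without replicate 3 none passed (Map1a 1.28, Map1b 1.22, Map4 -0.73), and only 3 of all genes did, against 1639 with all replicates. Without replicate 1 (594 genes called) Map4 did not pass (-0.52), and without replicate 2 (1663 genes called) Mapt did (-1.13).

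Pan-TurboID, which is not directed to dendrites, gave values of the same sign for Map1a, Map1b, Map2, Map4 and Mapt. At rest only Map4 passed (-0.73, SE 0.20, edgeR adjusted p = 0.0305), with 9.62% of genes called. Map1a was at 2278, 2543 and 2114 CPM in inputs and 2886, 3171 and 3585 in pulldowns (0.52, SE 0.22). Map1b was at 8949, 9634 and 9139 CPM and at 10980, 11164 and 13036 (0.39, SE 0.27). Neither gene had overlapping groups. With each culture as a block, Map1a, Map1b and Mapt passed (0.52, 0.39 and -0.61, edgeR adjusted p = 0.0160, 0.0108 and 0.00767). After KCl, Map1a rose by 0.90 (SE 0.22, edgeR adjusted p = 0.0217) while Map4 fell by 0.73 and Mapt by 0.88 (edgeR adjusted p = 0.0318 and 0.0416), with 8.79% of genes called; Map1b (0.63, edgeR adjusted p = 0.117) passed with the culture block (0.64, edgeR adjusted p = 0.000133). Map2 overlapped its inputs in both Pan-TurboID arms (-0.12 and -0.10, SE 0.23 each). Without replicate 2 or 3, 0 of all genes were called in either Pan-TurboID arm. Without replicate 1, 1225 genes were called at rest and 592 after KCl. At rest the Map4 call was lost without any 1 replicate (-0.80 to -0.66). After KCl, Map4 (-0.82 to -0.54) and Mapt (-1.01 to -0.60) were lost without each replicate, Map1a without replicate 2 (0.95) or 3 (0.72), and Map1b passed without replicate 1 (0.65).

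The bait itself made no difference that passed. The enrichment in TurboID-PSD95 minus that in Pan-TurboID, over both conditions, was 0.33 for Map1a (95% interval -0.10 to 0.76), 0.33 for Map1b (-0.19 to 0.85), -0.13 for Map1s, -0.55 for Map2 (-1.0 to -0.10), -0.17 for Map4 and -0.13 for Mapt (-0.63 to 0.38). Only 0.00768% of all genes, Dlg4 alone, passed this test with edgeR, and 169 had an unadjusted p under the 5% level. The lowest unadjusted p among the 6 genes was 0.0237, for Map2. The intervals do not show that the baits act alike.

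With DHPG, all 6 genes passed pulldown over input, but so did 62.7% of 12803 tested genes. Map1a was at 1616, 1577 and 1574 CPM in inputs and 5834, 5465 and 6039 in pulldowns, a 4.11-fold rise (log2 2.04, SE 0.21, edgeR adjusted p = 2.64e-06). Map1b rose 2.38-fold from 12800, 12759 and 12770 CPM to 27730, 26487 and 26652 (log2 1.25, SE 0.10). These libraries were closely alike within a group, and no group overlapped its partner. Map1s, at 165 to 178 CPM in inputs and 204 to 263 in pulldowns, rose by 0.61 (SE 0.13, edgeR adjusted p = 0.000600).

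The MAP2/tau genes all fell. Map2 was at 3426, 3522 and 3562 CPM in DHPG inputs and at 978, 1076 and 1070 in pulldowns, a fall by 1.57 (SE 0.10, edgeR adjusted p = 6.07e-09). Mapt was at 2714, 2732 and 2707 CPM and at 538, 622 and 689, a fall by 1.96 (SE 0.11, edgeR adjusted p = 4.20e-09). Map4 fell by 1.81 (SE 0.15), from 606 to 621 CPM in inputs to 130 to 168 in pulldowns. Each of these 6 calls held with any 1 replicate left out.

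Set against the resting TurboID-PSD95 libraries, DHPG inputs differed in Map1b, which was higher by 0.70 (SE 0.10, edgeR adjusted p = 6.57e-05); 1 of 6 genes passed, with 32.8% of all genes called. Map1a (-0.37, SE 0.21), Map1s (0.31, SE 0.13), Map2 (-0.14), Map4 (-0.09) and Mapt (0.18) did not pass. Without untreated replicate 2 Map1s did (0.39), and without untreated replicate 1 or 3 Map1a did (-0.43 and -0.35). With the replicate number as a block Map1a was at -0.05 and did not pass, and Map1s did (0.48, edgeR adjusted p = 0.0143). In pulldowns all 6 passed, with 47.7% of all genes called: Map1a was higher by 0.92, Map1b by 1.41 and Map1s by 0.85, while Map2 fell by 0.94, Map4 by 0.88 and Mapt by 0.76 (SE 0.10 to 0.21). Enrichment in DHPG exceeded enrichment at rest for Map1a by 1.28 (SE 0.29, edgeR adjusted p = 0.0225) and Map1b by 0.71 (SE 0.14, edgeR adjusted p = 0.00780), and was below it for Map2 (-0.80), Map4 (-0.79) and Mapt (-0.94); 5 of 6 passed, against 6.84% of all genes. Map1s passed with each culture as a block (0.53, edgeR adjusted p = 0.0161; 0.54 without). Leaving out 1 DHPG replicate ended the calls of Map1a (1.25 to 1.33), Map1b (0.71 to 0.74), Map2 (-0.80 to -0.75) and Map4 (-0.84 to -0.67), that of Mapt only without replicate 1 (-0.83), and that of Map1a also without untreated replicate 2 (1.11). With a DHPG replicate left out, 85 to 121 of all genes passed, against 876 with all replicates. Marker sums moved with this contrast. Oligodendrocyte markers summed to 26.1 to 29.3 CPM in DHPG inputs and 138 to 380 in resting ones (Mog was at 0 in both), astrocyte markers to 219 to 229 and 532 to 1056, and neuronal markers to 5210 to 5327 and 3480 to 4122. Microglial markers overlapped, at 2.43 to 4.03 and 1.30 to 3.82. The neuronal sum includes Tubb3, which alone ran from 550 to 4229 CPM over all inputs, so a higher sum need not hold for each neuronal marker. The part of these markers in the differences was not tested.

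In knockdown libraries the pair ratios of Map1a were its highest (2.81 to 3.12). At rest, Map1a was at 1036 and 1012 CPM in inputs and 7285 and 7967 in pulldowns, a 7.93-fold rise (log2 2.99, SE 0.28, edgeR adjusted p = 1.89e-07). Map1b rose from 12248 and 12054 CPM to 43123 and 44443 (log2 1.94, SE 0.28, edgeR adjusted p = 7.14e-05). Map2 fell by 1.04, Map4 by 1.33 and Mapt by 1.49 (SE 0.20 to 0.30), and Map1s, whose 2 pulldowns (117 and 144 CPM) lay below its inputs (154 and 146), had -0.11 (SE 0.22). Thus 5 of 6 genes passed, with 20.7% of all genes called. Without 1 knockdown replicate, Map1b (1.90 to 1.95), Map2 (-1.14 to -0.97), Map4 (-1.37 to -1.31) and Mapt (-1.55 to -1.45) did not pass. The lone library then borrows the spread of the other groups. Far fewer of all genes passed such fits in each knockdown comparison, so lost calls are not particular to these 6 genes.

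After KCl with knockdown, 5 of 6 genes passed again, with 28.3% of all genes called. Map1a rose 8.44-fold (log2 3.08, SE 0.28), from 909 and 906 CPM to 6534 and 7857, and Map1b 4.95-fold (log2 2.31, SE 0.28), from 11976 and 11869 CPM to 51650 and 59261. Map2 fell by 1.20 (SE 0.20), from 3505 and 3365 CPM to 1325 and 1480, and Mapt by 1.72 (SE 0.31), from 2139 and 2226 CPM to 591 and 657. Map4 fell by 1.75 (SE 0.24). No knockdown group of these 5 genes overlapped its partner. Without replicate 1, Map2 (-1.10), Map4 (-1.51) and Mapt (-1.68) did not pass, and without replicate 2, Map1b (2.19), Map2 (-1.32) and Mapt (-1.77) did not.

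Against untreated libraries, Map1a was lower in knockdown inputs and higher in knockdown pulldowns. It fell by 1.08 (SE 0.24, edgeR adjusted p = 0.0107) in resting knockdown inputs, which lay below all untreated ones, and was the only one of 6 genes to pass (3.90% of all genes passed). In KCl inputs none passed (5.31% of all genes), with Map1a at -0.75 (SE 0.24, edgeR adjusted p = 0.0645) and Map1b at 0.68 (SE 0.24, edgeR adjusted p = 0.0979). In pulldowns Map1b rose by 1.92 (SE 0.24) at rest and 1.82 (SE 0.24) after KCl, and Map1a by 1.12 (SE 0.23) and 0.98 (SE 0.23), while Map2 fell by 0.71 and 0.77 (SE 0.18 and 0.19). The resting pulldowns had 3 of 6 genes called (9.15% of all genes) and the KCl pulldowns 5 of 6 (18.9% of all genes), where Map4 (-0.64) and Mapt (-0.81) also fell.

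Enrichment with knockdown exceeded enrichment without it for Map1a by 1.97 (SE 0.24, edgeR adjusted p = 2.04e-05) and for Map1b by 1.26 (SE 0.25, edgeR adjusted p = 0.00501), over both conditions. These 2 of 6 genes passed, against 1.81% of all genes. Map2, Map4 and Mapt had -0.48, -0.66 and -0.75, and passed with each culture as a block (-0.48, -0.65 and -0.69, edgeR adjusted p = 0.0273, 0.0116 and 0.0110) and without untreated replicate 1 (-0.58, -0.77 and -0.89). Leaving out 1 knockdown replicate ended the call of Map1b (1.19 and 1.31) and, for replicate 2, of Map1a (1.86). Such fits leave 1 library in a group, and far fewer of all genes passed them, here and in the comparisons that follow. In resting inputs the Map1a call was lost without either knockdown replicate (-1.09 and -1.05), and Map1b passed without untreated replicate 1 (0.51). In resting pulldowns Map1a (1.08 to 1.17) and Map2 (-0.79 to -0.64) were lost without either knockdown replicate. In KCl pulldowns the same loss held for Map1a (0.84 to 1.11), Map2 (-0.85 to -0.69), Map4 (-0.87 to -0.43) and Mapt (-0.89 to -0.74), and without untreated replicate 2 Map4 and Mapt were at -0.45 and -0.28. Marker sums moved with the knockdown contrasts too. Microglial markers summed to 11 to 24.0 CPM in knockdown inputs and to 1.28 to 4.67 in untreated TurboID-PSD95 inputs. In resting knockdown inputs neuronal markers summed to 5102 to 5246 CPM, against 3480 to 4122 untreated, and oligodendrocyte markers to 96.4 to 101, against 138 to 380, while astrocyte markers (593 to 608) lay within the untreated range. In knockdown KCl inputs astrocyte markers summed to 723 to 755, against 585 to 623, oligodendrocyte markers to 86.7 to 89.1, against 96.7 to 169.5, and neuronal markers (2857 to 2909) lay within the untreated range. Here too the neuronal sum includes Tubb3 (550 to 4229 CPM over all inputs) and need not hold for each neuronal marker. The part of these markers in these differences was not tested.

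The members differ in CDS length, so each fit was repeated with the trend of fold change on CDS length removed. At rest with TurboID-PSD95, Map1a then had 0.10 (edgeR adjusted p = 0.828) and Map1b -0.06, and neither passed. After KCl, Map1a and Map1b went to 0.61 and 0.48 and were not called (edgeR adjusted p = 0.109 and 0.152), and with Pan-TurboID after KCl Map1a (0.33) and Mapt (-0.81, edgeR adjusted p = 0.0581) were not called. With DHPG, Map1a stayed called at 0.97, while Map1b (0.26) and Map1s (0.13) did not. In both knockdown arms Map1a kept 2.00 and Map1b 1.03 and 1.31, all called. The falls of Map2 and Map4 grew, as in -1.30 and -1.43 for TurboID-PSD95 at rest, and Map2 after KCl now passed (-1.05, edgeR adjusted p = 0.00838). Of the differences in enrichment, Map1a and Map1b in DHPG (0.88 and 0.33) lost their calls, and Map2 with knockdown gained one (-0.77, edgeR adjusted p = 0.0324). Against untreated pulldowns, knockdown pulldowns lost the calls of Map1a (0.72 at rest, 0.30 after KCl) and of Mapt after KCl (-0.68, edgeR adjusted p = 0.0571). In knockdown KCl inputs Map1a gained a call (-1.09, edgeR adjusted p = 0.00949).

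**Figure D3:**
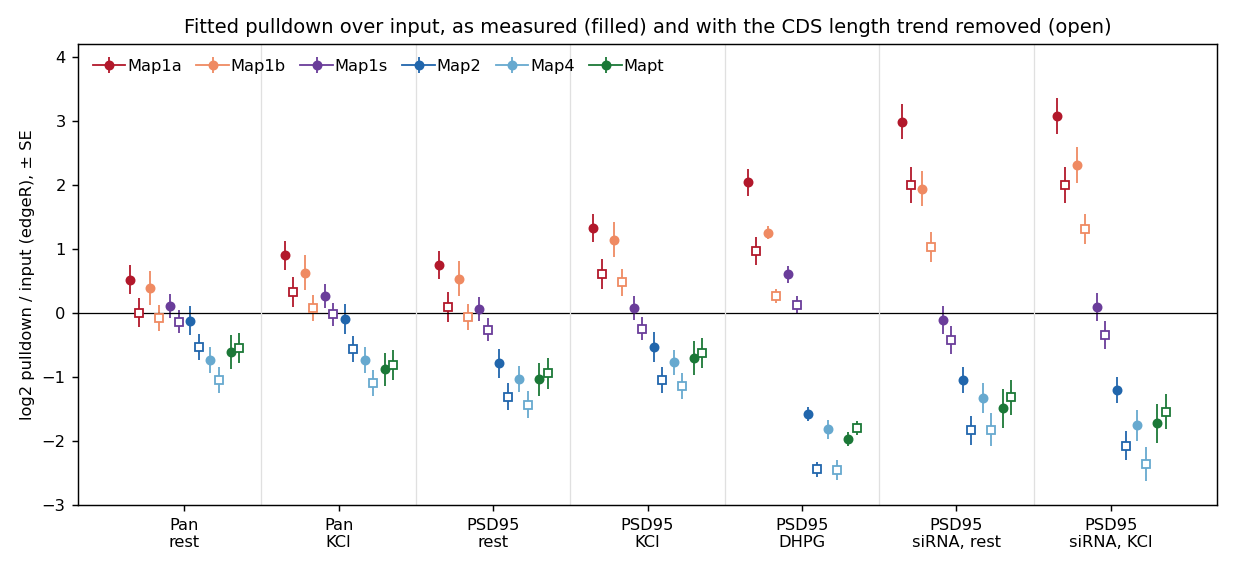
Fitted log2 pulldown over input (edgeR, ± SE) for each gene in 7 arms, as measured (filled circles) and with the trend on CDS length removed (open squares). Open squares of Map1a and Map1b fall toward 0 in the 4 arms of the KCl experiment and stay above 0 in the siRNA arms, and Mapt, with a CDS of median length, hardly moves.

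For KCl against rest, where KCl includes the silencing before it, none of the 6 genes passed in the main fit. That fit was quasi-likelihood, with all replicates, no block and no length trend removed. Map1a passed in inputs with the replicate number as a block. In inputs of both baits, where 15.4% of all genes passed, Map1a was at 2028 to 2543 CPM at rest and 1473 to 1901 after KCl, with no overlap between 6 and 6 libraries, yet its -0.44 (SE 0.16) missed the threshold (edgeR adjusted p = 0.0555). Resting and KCl samples of the same replicate were processed together. With the replicate block Map1a passed (-0.44, edgeR adjusted p = 0.0425). It also passed without replicate 1 (-0.56), when Map1s did as well (-0.48; -0.33 with all). With the length trend removed the values shrank to -0.19 for Map1a and -0.16 for Map1s (edgeR adjusted p = 0.495 and 0.443). Map1b (-0.02), Map2 (0.05), Map4 (0.11) and Mapt (-0.22) had SEs of 0.14 to 0.19. In TurboID-PSD95 pulldowns (6.59% of genes called) the values ran from -0.37 for Map1s to 0.47 for Map1b (SE 0.27), and in Pan-TurboID pulldowns (5.03% called) from -0.31 for Mapt to 0.33 for Map1b. With the length trend removed, Map1b in TurboID-PSD95 pulldowns passed (0.67, edgeR adjusted p = 0.0494).

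The change of enrichment with KCl under TurboID-PSD95 was 0.58 (SE 0.31) for Map1a and 0.60 (SE 0.38) for Map1b, and 0.02 to 0.33 for the others. No member passed, nor did any other gene with edgeR (0.00% of 13019), where 236 genes had an unadjusted p under the 5% level; DESeq2 and edgeR's likelihood ratio test called 1 gene each. Under knockdown, no member passed for KCl in inputs (2.89% of genes called) or pulldowns (4.63% called) in the fit with untreated libraries, with values of -0.34 to 0.34. A fit of the knockdown libraries alone did call members, as counted further below. The difference between the KCl responses of knockdown and untreated inputs was 0.07 to 0.38, not called for any member, and 0.00758% of all genes passed.

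Within the CDS, pulldown footprints of the MAP1 genes were fewer at the start. This was common: over all genes, 4014 of 7573 first segments (53%) were lower in pulldowns and 8 higher, with a median of -0.90. Among other segments 6.99% were lower, 14.4% higher and the median was 0.22. Segments were tested against the whole gene in the 24 libraries of the KCl experiment, and 56 member segments entered, of which 14 passed (11 lower and 3 higher in pulldowns); 24.2% of 85545 segments passed. The first segment of Map1a, printed above, had a log2 difference of -2.61 (SE 0.28), segment 3 had -2.25 and segment 4 had -2.12, while the long segment 5 was at 0.07. Segments 1 to 4 of Map1a belong to 1 of its 2 coding transcripts, and the other starts within segment 5. In inputs segments 1, 2 and 4 had 5.19, 1.63 and 5.57 counts per nt, segment 3 had 24.3 and segment 5 had 21.4. A difference in the use of these 2 forms was not tested. Map1b rose step by step along its first 4 segments, with -2.35 (SE 0.19), -1.56, -0.63 and then -0.26, which did not pass, and its long segment was at 0.11. Map1s had -1.35 (SE 0.23) and -0.81 in its first 2 segments and 0.28 in its long one. Each of these passing segments had an edgeR adjusted p of at most 0.0341. The long segments hold 89.6%, 87.8% and 80.5% of the CDS length of Map1a, Map1b and Map1s, so their values lie near the whole gene by construction.

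The share of a gene's CDS counts on the first segment shows the same in single pairs, over all 3 experiments. For Map1b the median share was 6.19% in inputs and 0.791% in pulldowns, for Map1s 13.8% and 4.82%, and for Map1a 0.699% and 0.0658%, each lower in the pulldown in 19 of 19 pairs. Map1a counts there were few, as low as 15 in an input and 0 in a pulldown. Map2 was lower in 13, Map4 in 11 and Mapt in 13 of 19 pairs.

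The MAP2/tau genes had a flatter profile. The first segment of Map2 was at -0.63 (SE 0.18, edgeR adjusted p = 0.00998), and its segments 5, 6 and 7 were higher by 0.78, 0.62 and 0.77 (SE 0.18 to 0.19). No segment of Map4 (17 tested) or Mapt (9 tested) passed, the first segments being at -0.13 and -0.17 and the longest at -0.03 and -0.15. Map1a also had lower last segments (-0.94 for segment 6). Without replicate 3, 8 of the 14 calls were lost: segments 6 and 7 of Map1a, 3 of Map1b, 2 of Map1s, and 1, 5, 6 and 7 of Map2, with values of -0.88, -0.95, -0.71, -0.55, -0.49, 0.76, 0.57 and 0.71. Without replicate 1, segments 2 of Map1s (-0.70) and 6 of Map2 (0.45) were lost.

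**Figure D4:**
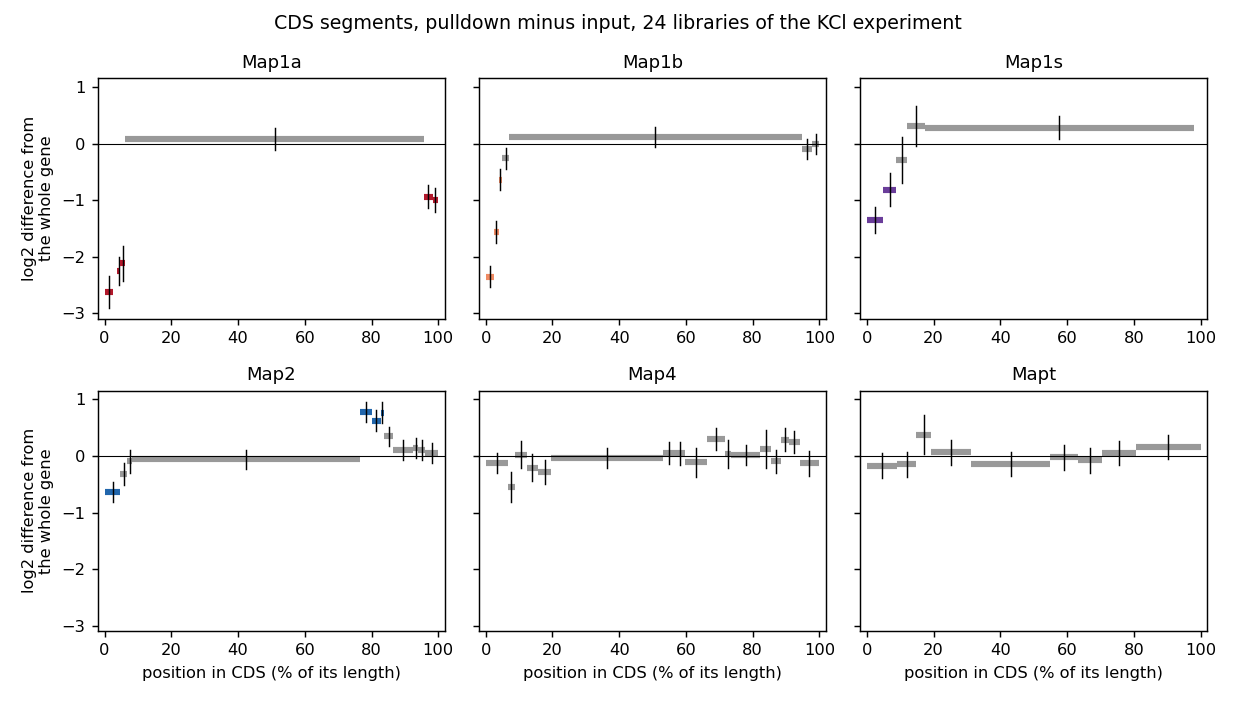
Each CDS segment as a bar over its place in the CDS (% of length), with its log2 difference between pulldown and input relative to the whole gene (bars: SE); colored segments passed the test and grey ones did not. Map1a, Map1b and Map1s have their lowest values in the first segments, while Map4 and Mapt stay near 0 throughout.

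For KCl in inputs 0 of 56 member segments passed with edgeR, against 0.0374% of all segments (5754 had an unadjusted p under the 5% level). The nearest was segment 3 of Map1a, at 1.45 (SE 0.34, edgeR adjusted p = 0.0552), which passed with the replicate block (1.44, edgeR adjusted p = 0.0152), and first segments were at 0.23 for Map2 to 1.01 for Mapt.

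Footprints on 5′ UTRs are another readout that the list did not use. Map1b has a short one of 53 nt, and in inputs its footprint density was 1.90 times that of the CDS, against 0.461 in pulldowns. For Map2 the ratio was 0.634 in inputs and 0.354 in pulldowns, for Map4 0.712 and 0.641, and for Mapt 0.448 and 0.424. The 5′ UTRs of Map1a (35 nt) and Map1s (11 nt) held 77 and 82 counts over all inputs and did not pass the filter. Since 5′ ends were counted with no offset, a ribosome at a start codon is counted in the 5′ UTR. Counts after KCl over rest had log2 values of 0.43 for Map1b, 0.49 for Map2, 0.28 for Map4 and 0.39 for Mapt in inputs (SE 0.33 to 0.34), and 0.87, 0.63, 0.68 and 0.71 in TurboID-PSD95 pulldowns (SE 0.47 to 0.49). None of the 4 passed with edgeR, where 0.442% and 0.275% of 10186 genes did, and the medians over all genes were 0.17 and 0.65. The unadjusted p of Map1b in pulldowns was 0.0771, the lowest of the 4 there.

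Alternative forms were compared by the density of a segment over that of its constant neighbours. Density also differs between segments of the same forms: segments 4, 5 and 6 of Map2 had 79.3, 49.9 and 23.7 counts per nt in inputs. A ratio is therefore not the share of a form. Segments 4 to 6 of Map2, which belong to the long MAP2 forms, had a median density of 80.5% of segments 8 to 12 in 19 inputs (62.4% to 113%) and 68.6% in pulldowns (52.3% to 97.3%). The alternative repeat exon of Map2 had 127 counts in all inputs and a median of 1.09%. In Map4 the matching exon was at 47.5% in inputs and 49.8% in pulldowns, so the exon with few footprints in Map2 had many in Map4.

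The mean density of segments 4 to 6 of Map2 was lower in pulldowns than in inputs in each of the 7 arms, and the groups overlapped in 3 of them. In TurboID-PSD95 libraries at rest it was 77.7% ± 5.29 in inputs and 70.0% ± 1.24 in pulldowns (SD, n = 3), and with DHPG 81.5% ± 3.09 and 61.8% ± 5.59 (SD, n = 3), with no overlap in either. After KCl it was 91.1% ± 9.45 and 72.6% ± 7.82 (SD, n = 3), and the groups overlapped. With siRNA it was 68.4% ± 2.80 and 53.5% ± 1.70 at rest and 69.6% ± 5.81 and 58.4% ± 0.956 after KCl (SD, n = 2), with no overlap. In Pan-TurboID libraries the groups overlapped both at rest, at 79.9% ± 2.06 and 78.8% ± 2.75, and after KCl, at 88.2% ± 25.3 and 83.8% ± 23.4 (SD, n = 3). Segment 4 holds 3741 of the 4083 nt and sets this ratio. Its share of all Map2 counts was 70.5% over all inputs and 67.6% over all pulldowns, while the shares of segments 5 and 6, which belong to the same forms, went the other way, from 2.45% to 3.87% and from 0.760% to 1.11%, and both passed as higher in the segment test above. The long-form segments thus did not move together. No test was made on these ratios. The 759-nt exon of the large tau form was at 0.597% in inputs, and a 3180-nt exon of Map4 at 0.0360%. A 1453-nt segment of 2 other Map4 transcripts, Map4-204 and Map4-214, held 33011 counts over the 38 libraries (22.7 per nt). The longest segment of the transcript used held 29436 (26.0 per nt). The 1453-nt segment is not part of the Map4 values, and its use was not compared between groups.

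**Figure D5:**
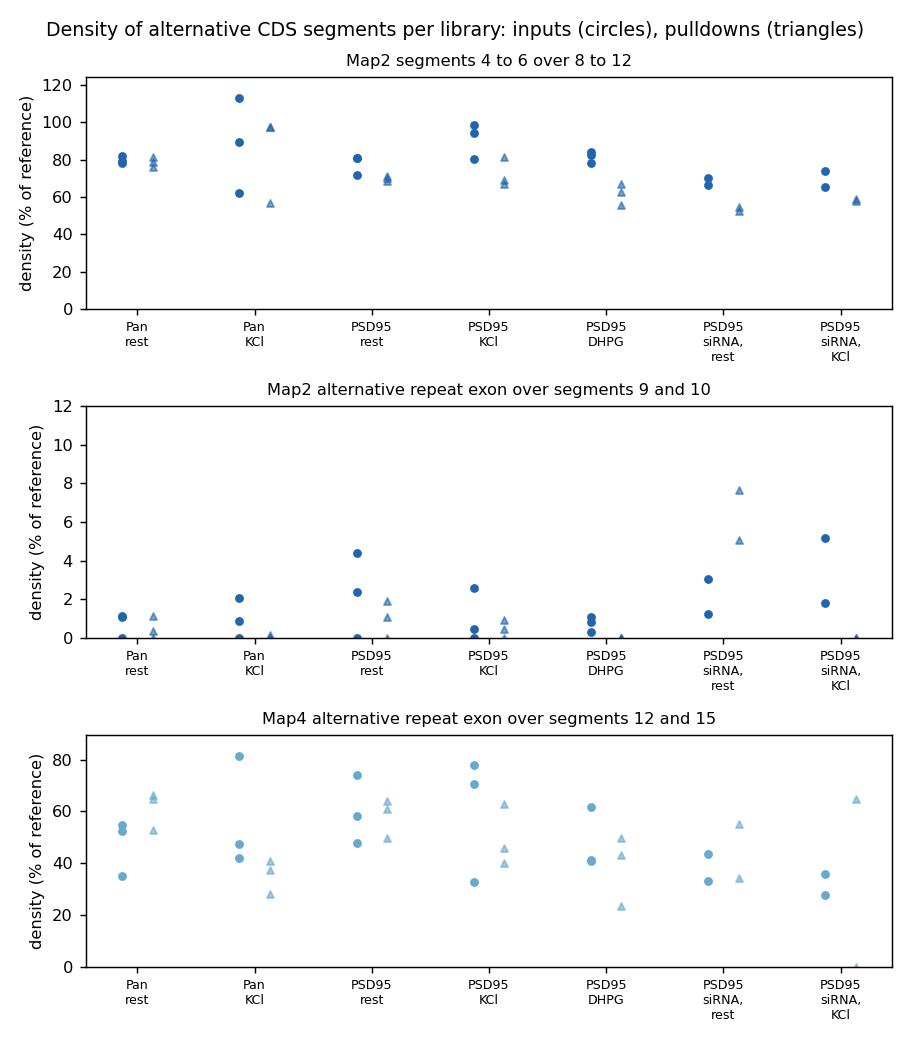
Density of 3 alternative CDS segments as a percentage of the density of their constant neighbours, per library, inputs as circles and pulldowns as triangles, in 7 arms. The repeat exon is at most 7.65% in Map2, while its input median is 47.5% in Map4.

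The other genes of microtubule regulation, 51 in 6 lists, included genes that rose and genes that fell. In resting TurboID-PSD95 pulldowns 4 rose and 9 fell, with a median of -0.08 against -0.05 over all genes, of which 25% passed (11.5% higher and 13.5% lower), so the share called was close to that of all genes. No list was tested as a whole. Of 9 lattice-binding proteins 4 fell, among them Map9 (-0.95) and Map7d2 (-0.72), and of 7 proteins that bind tubulin dimers 3 fell, among them Stmn1 (-1.28), a stathmin. Tubulin modifiers had 3 of 9 higher, with Hdac6, a tubulin deacetylase, at 0.85 and Ttll1, a polyglutamylase subunit, at 1.04. With DHPG 19 rose and 17 fell, where 62.7% of all genes passed. In knockdown pulldowns 9 rose and 8 fell at rest (20.7% of all genes passed), and 13 rose and 12 fell after KCl (28.3%). Mapre1 (EB1, which marks growing plus ends) fell in both settings (-1.75 with DHPG, -1.24 with knockdown at rest), and Camsap3, a minus-end binder, rose (1.42 and 1.22).

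For KCl in inputs, 2 of 51 rose and 8 fell (median -0.18, against -0.01 over all genes), where 6.32% of all genes were higher and 9.03% lower. Of the 8, 4 were kinases, among them Mark3 (-0.87) and Mark4 (-0.86), which phosphorylate tau and MAP2 in their repeats. Stmn4 rose by 0.99 (SE 0.14, edgeR adjusted p = 1.21e-05) and Stmn3 by 0.41. Vash1, which removes the terminal tyrosine of tubulin, fell by 1.34 (SE 0.22, edgeR adjusted p = 9.47e-05).

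Over the 14 group means of log2(CPM + 0.5), Map2, Map4 and Mapt varied together (Pearson's r 0.84 to 0.94), as did Map1a and Map1b (0.78). Map1s did not follow its family, with r of 0.18 to Map1a and 0.08 to Map1b, and Map1a and Map4 ran opposite (-0.91). These 14 points mix inputs with pulldowns and are a description only. Among 8031 genes the most alike in pattern were Rere, Ankrd12 and Cep295 for Map1a (r 0.97 to 0.98), Lmo7, Tnik and Naa15 for Map1b (0.96 to 0.98), Slc25a51, Acot7 and Mical2 for Map1s (0.90 to 0.91), Trp53bp1, Taf7 and Calcoco1 for Map2 (0.96 to 0.97), Celf2, Zfand5 and Fau for Map4 (0.98 to 0.99) and Sfr1, Morf4l2 and Psmd13 for Mapt (0.98 to 0.99).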

How the data were processed

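Ribosome footprints of 38 libraries were analysed from 114 files, 3 per library (CDS, 5′ UTR and 3′ UTR segments). The authors aligned the reads to mm10 with Rsubread, removed duplicates (by the names of their alignment files) and counted 5′ ends of footprints per segment with plastid, and deposited these counts beside RPKM. The deposited RPKM values were recomputed from the counts and total counts, with no difference beyond a relative tolerance of 0.0001, and were not otherwise used. Strand and multimapping settings are not given in the sources used here. Transcripts were matched to symbols, and segments of each gene's longest transcript were summed.

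For genes, the test was that of edgeR 4.0.16, run in R 4.3.3 (quasi-likelihood, robust, TMM, filterByExpr, Benjamini-Hochberg over all genes, threshold 0.05), in fits of 24 (KCl), 12 (DHPG) and 20 (knockdown) libraries without a block, and for segments edgeR's exon usage test. The code was tested on simulated data. DESeq2 1.42.0, other scalings and filters, the highest-count transcript, blocks, removal of a length trend and single left-out replicates were alternatives. The block of each culture, and the length trend removed together with the replicate block, were added after the data were seen. Named genes were the 6 members, the 3 genes most alike in pattern to each (mean log2 CPM of at least 4), and per list and direction the largest passing changes. The members and lists were chosen with earlier results of these data known.

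By the methods an input is a share of the monosomes used for its pulldown, and an input and a pulldown of the same number were taken as 1 lysate. In the KCl experiment their deviations from the group means correlated at r of 0.344 to 0.704 in 12 of 12 pairs; by the methods, resting and KCl samples of 1 replicate were processed together, and of the other same-numbered pairs there 34 of 72 exceeded 0.1. In DHPG 0 of 3 and in knockdown 0 of 4 pairs exceeded 0.1, so the counts there do not show that same-numbered libraries share a lysate. Smallest member count in a library was 221, for Map1s.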

Additional observations from a re-analysis of the deposited data

Results flagged for a closer look

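Enrichment, the log2 pulldown over input, differed between DHPG-treated and resting TurboID-PSD95 libraries by the interaction term of the edgeR fit for 5 genes: 1.28 for Map1a, 0.71 for Map1b, -0.80 for Map2, -0.79 for Map4 and -0.94 for Mapt, where 6.84% of all genes passed. With the length trend removed Map1a (0.88, edgeR adjusted p = 0.163) and Map1b (0.33, edgeR adjusted p = 0.292) did not pass. With 1 replicate left out 0 to 5 members passed, when 85 to 1133 of all genes did (876 with all replicates). By the same kind of term, enrichment with eIF4G2 siRNA exceeded that in untreated libraries by 1.97 for Map1a and 1.26 for Map1b, where 1.81% of all genes passed. Map1b did not pass without either knockdown replicate (1.19 and 1.31), nor Map1a without knockdown replicate 2 (1.86). Such fits leave 1 library in a group, and far fewer of all genes passed them. In both contrasts treatment and experiment cannot be told apart.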

How the results depend on the processing

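Of 1918 values of single genes and segments under an alternative, 1761 stayed on their side of the threshold, 103 lost a call, 54 gained one and 0 changed sign with a call. Among the 1761, 70 values called in neither fit changed sign, 29 of them of Map1s. The cause of the changes below was not tested. With each culture as a block (same-numbered input and pulldown, added after the data were seen), the number of the 6 genes called went from 3 to 5 for TurboID-PSD95 after KCl, 1 to 4 for Pan-TurboID at rest and 2 to 5 for enrichment with knockdown. With the replicate number as a block, its levels were fitted within each experiment, so values between experiments compare the levels of replicate 1 of each. Map1s in DHPG inputs was then called (0.48), and Map2 in resting (-0.66) and Map4 and Mapt in KCl knockdown pulldowns (-0.63 and -0.46) were not. For enrichment in DHPG this block and the culture block are the same fit. With the replicate block the number went from 0 to 1 for KCl inputs (Map1a -0.44), 1 to 2 for DHPG inputs and 5 to 3 for knockdown KCl pulldowns, and 1 of 56 segments passed for KCl inputs instead of 0. With the length trend removed it went from 3 to 1 for Pan-TurboID after KCl, 5 to 3 for enrichment in DHPG and knockdown KCl pulldowns, and 0 to 1 for knockdown KCl inputs and KCl TurboID-PSD95 pulldowns (1 also with the replicate block). The mean of both baits' inputs gave 5 in place of 3 for TurboID-PSD95 after KCl. All CDS segments gave 2 and the likelihood ratio test 1 in place of 0 for KCl inputs. DESeq2 gave 2 for DHPG inputs (1) and 1 for knockdown KCl inputs (0), the likelihood ratio test 1 and no filter 2 for the latter; RLE factors gave 2 for DHPG inputs and 3 for knockdown KCl pulldowns (5). A fit of the knockdown libraries alone gave 1 (inputs) and 2 (pulldowns) in place of 0 for KCl. Calls over all genes rose as well in that fit, to 2365 (382 in the main fit) in inputs and 2716 (611) in pulldowns.

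With 1 replicate left out, the number of the 6 genes called in pulldown over input ranged from 0 to 5 (4 with all) for TurboID-PSD95 at rest, 0 to 4 (3) after KCl, 0 to 0 (1) for Pan-TurboID at rest, 0 to 2 (3) after KCl and 6 to 6 (6) with DHPG. Over all genes the calls in these fits ranged from 0 to 2900 (3259 with all), 3 to 1663 (1639), 0 to 1225 (1253), 0 to 592 (1144) and 6284 to 6613 (8029). In knockdown comparisons a left-out knockdown replicate leaves 1 library in a group, and far fewer of all genes passed such fits. The number of the 6 genes called ranged from 0 to 2 (0) for KCl inputs, 1 to 2 (1) for DHPG inputs, 6 to 6 (6) for DHPG pulldowns and 0 to 5 (5) for enrichment in DHPG. For the last, 85 to 1133 of all genes were called (876 with all). For knockdown over untreated it ranged from 0 to 2 (1) in resting inputs, 0 to 2 (0) in KCl inputs, 1 to 4 (3) in resting pulldowns, 1 to 5 (5) in KCl pulldowns and 0 to 5 (2) in enrichment. Called segments ranged from 6 to 14 (14).

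Calls over all genes moved by more than 1.5 times as well, also with 1 replicate left out, as given above. With the culture block they went from 3259 to 5444 and 1639 to 4482 for TurboID-PSD95 at rest and after KCl, 1253 to 4249 and 1144 to 4143 for Pan-TurboID, 2731 to 4363 for knockdown at rest, 876 to 1809 for enrichment in DHPG and 239 to 963 for enrichment with knockdown. With the length trend removed they went to 1837, 697, 390 and 340 in the first 4, to 1487 and 2130 (from 3731) in the knockdown arms and to 405 for enrichment in DHPG. DESeq2 called 2638, 2137 and 2252 genes for TurboID-PSD95 after KCl and Pan-TurboID at rest and after KCl, 1377 (858) for KCl in TurboID-PSD95 pulldowns, and 92 (45) and 196 (28) for 5′ UTR counts in inputs and pulldowns. Against untreated, the replicate block gave 262 (515), 378 (701), 747 (1207) and 1271 (2495) in resting and KCl inputs and pulldowns. Depth limits the first segment of Map1a, with as few as 0 counts in a pulldown.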
